A study of Mus musculus with 16 samples.

Results

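The Hox cluster genes were taken as every symbol of the form Hoxa, Hoxb, Hoxc or Hoxd followed by a number in the stage tables, which gave the same 39 of 24421 genes in the table of each stage. Hox genes encode homeodomain transcription factors that give cells their identity along the head-to-tail axis. They lie in 4 clusters, and the genes of one number in different clusters (a paralogue group) descend from one ancestral gene. Low-numbered groups come on first and reach farthest forward, into the hindbrain and the crest that leaves it. High-numbered groups come on later and farther back, and some also work in the limbs and the uterus. Crest of the forebrain, midbrain and most anterior hindbrain expresses no Hox gene.

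The study asked how loss of the microRNA miR-302 alters mouse development up to and through neural crest formation. RNA was sequenced from C57BL/6 embryos labelled WT or KO, with KO meaning deletion of miR-302. The labels do not name the deleted allele, the reporter used for sorting, or whether each library was 1 embryo or a pool. At E7.5 there were 2 WT and 2 KO libraries of whole embryos. At E8.5 there were 3 WT and 4 KO libraries of sorted Wnt1-Cre+ cells, and 1 WT library carries the tag 5s in its title. The E9.5 libraries, 2 of each genotype, were of sorted Sox10+ cells. Wnt1-Cre is active in the dorsal neural tube as well as in the crest that leaves it, so such a sort can hold both. Sox10 marks migrating crest and its glial derivatives. The labels do not say that libraries of a group came from separate animals, so p-values measure only the spread between these libraries, which may be technical.

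Reads assigned to genes ranged from 4912827 to 9184436 per library at E7.5, from 9008784 to 13517860 at E8.5 and from 7300598 to 14861728 at E9.5. At this depth 3 reads, the limit a count of 0 allows, correspond to 0.202 to 0.611 RPM (reads per 1000000 assigned to genes) in a library, for counting error only. Reads on the 4 miR-302 hairpin genes numbered 14 and 25 in the WT libraries of E7.5 and 0 in both KO libraries. At the later stages the hairpins gave at most 1 read in any library, so they do not check the labels there. The crest marker Sox10 had normalised values of 662 to 1017 in the E8.5 libraries and of 511 to 1165 at E9.5, against 0.703 to 4.81 in the whole embryos of E7.5. Foxd3, an early crest factor, ranged from 94 to 242 at E8.5 and from 79.2 to 294 at E9.5. Tfap2a, a crest and ectoderm factor, ranged from 30.2 to 68.8 and from 28.4 to 55.9.

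The miRNAs deleted in the KO share a seed, the stretch that pairs with a target message. RefSeq mature sequences of the family are shown 5′ to 3′ because the seed (bases 2 to 8, in capitals) sets which Hox messages hold a match.
miR-302b-3p: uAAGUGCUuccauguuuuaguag
miR-302d-3p: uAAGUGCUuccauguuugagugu

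Matches were searched in the longest annotated 3′ UTR of each gene (GENCODE M21). The forms accepted were AGCACTT, the complement of the seed, GCACTTA, and AGCACTTA, which holds both. They were present in 3 of 39 Hox genes (7.69%), against 3562 of 19529 genes with a 3′ UTR (18.2%). The median 3′ UTR was 966 bases in the Hox genes and 998 bases in all genes. The longest form, AGCACTTA, was present in 1 of 39 Hox genes (2.56%) and in 3.08% of all genes. Sites of 2 of these genes are given with 10 bases on each side, in build GRCm38.p6, with the match in capitals.
Hoxb13, chr11:96196521-96196548, plus strand: agctctgttgAGCACTTAgaaatcgctt
Hoxd12, chr2:74677163-74677189, plus strand: acagaaaaccAGCACTTcttccccatc

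Neither Hoxb13 nor Hoxd12, both of the posterior end of their clusters, had more than 3 reads at any stage. The letters are a description of the annotated message, not evidence of pairing.

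The clusters differ in position and in what overlaps them. HoxA (11 genes, 105 kb) lies at chr6:52155590-52260880 on the minus strand. HoxB (10 genes, 174 kb) lies at chr11:96194316-96368256, HoxC (9 genes, 116 kb) at chr15:102921103-103036852 and HoxD (9 genes, 96.8 kb) at chr2:74668310-74765142, all on the plus strand. HoxC starts at group 4. An annotated gene on the opposite strand overlaps 7 members of HoxA, 4 of HoxB, 0 of HoxC and 3 of HoxD. The kit used does not mark strand, so reads of such pairs cannot be told apart. The genes of Hoxa3, Hoxa4, Hoxa5 and Hoxa6, and of Hoxd3 and Hoxd4, also overlap on the same strand, so their low values are uncertain.

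Which part of each cluster was read differed between the whole embryos and the sorted cells. At E7.5, 34 of 39 members had at least 1 read, in 1464 Hox reads over 4 libraries. At E8.5 it was 22 of 39, in 3228 reads over 7 libraries, and at E9.5 13 of 39, in 457 reads over 4 libraries. In the sorted cells nearly all Hox reads came from paralogue groups 1 to 3, the hindbrain groups: 3183 reads at E8.5 and 446 at E9.5. Groups 4 to 8 gave 42 and 7 reads, and groups 9 to 13 gave 3 and 4 reads. In the whole embryos groups 9 to 13 gave the most reads, at 1110, with 209 from groups 1 to 3 and 145 from groups 4 to 8. Of the 1110 reads, 759 were in the library WT1, although groups 9 to 13 were the largest class in each library. The stage tables were normalised separately and the tissues differ, so these counts are a description with no test.

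**Figure D1:**
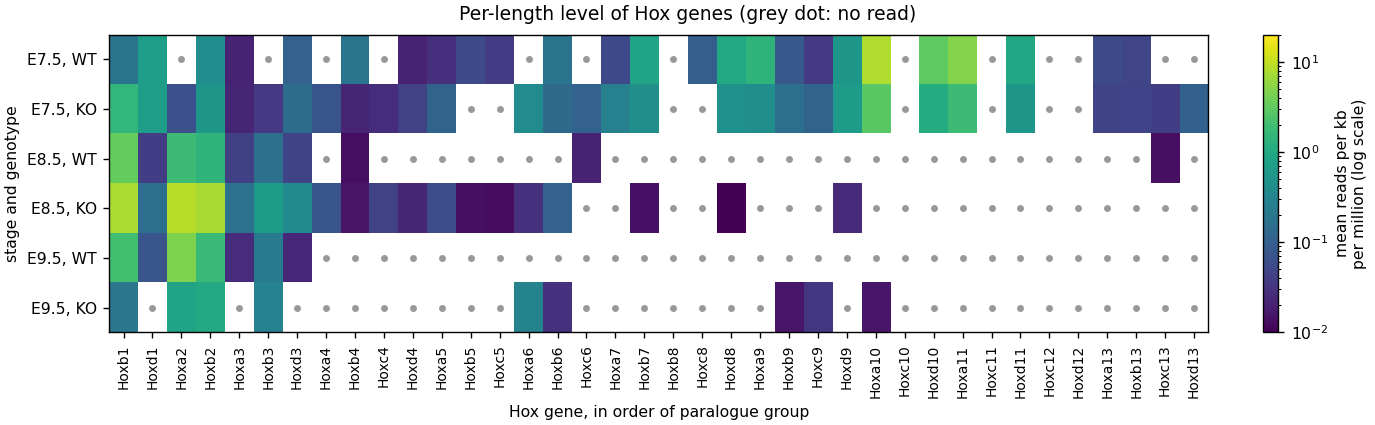
Mean RPKM (RPM per kilobase of transcript; colour, log scale, values under 0.01 drawn at 0.01) of Hox genes in order of paralogue group (x axis), in the WT and KO libraries of each stage (y axis); grey dots are genes with no read. Groups 9 to 11 of clusters A and D are read at E7.5, and groups 1 to 3 carry the signal at E8.5 and E9.5.

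Members with no read at E8.5 numbered 17: Hoxa7, Hoxb8, Hoxc8 and 14 of the 16 members of groups 9 to 13. At E9.5 they numbered 26, among them 13 of the 15 members of groups 4 to 8. A count of 0 over all libraries of a stage allows up to 0.104 RPM for E7.5, 0.0403 for E8.5 and 0.0696 for E9.5. Reads in every library of the stage were found for 10 members in the E7.5 table, 5 in that of E8.5 and 4 in that of E9.5. Hoxa2, Hoxb1, Hoxb2 and Hoxb3 were in the sets of both E8.5 and E9.5. HoxC, which has no member of groups 1 to 3, gave 7 reads or fewer in every library of the study.

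Levels can be compared between genes only per length, here as RPKM, the RPM per kilobase of the longest transcript. At E7.5 the highest means over all libraries were Hoxa10 at 5.50, Hoxa11 at 3.36, Hoxd10 at 2.05, Hoxa9 at 0.921, Hoxb1 at 0.862 and Hoxd11 at 0.745. At E8.5 the highest were Hoxa2 at 5.86, Hoxb1 at 5.76 and Hoxb2 at 4.77, and lower levels included Hoxb3 at 0.425 and Hoxd3 at 0.233. Group 2 of both clusters and group 1 of HoxB therefore stood about an order of magnitude above the other members at E8.5. At E9.5 the highest were Hoxa2 at 2.7, Hoxb2 at 1.35, Hoxb1 at 1.11, Hoxb3 at 0.260 and Hoxa6 at 0.149. Hoxa6 rested on 6 reads there, all in KO libraries, and has overlapping genes on both strands.

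**Figure D2:**
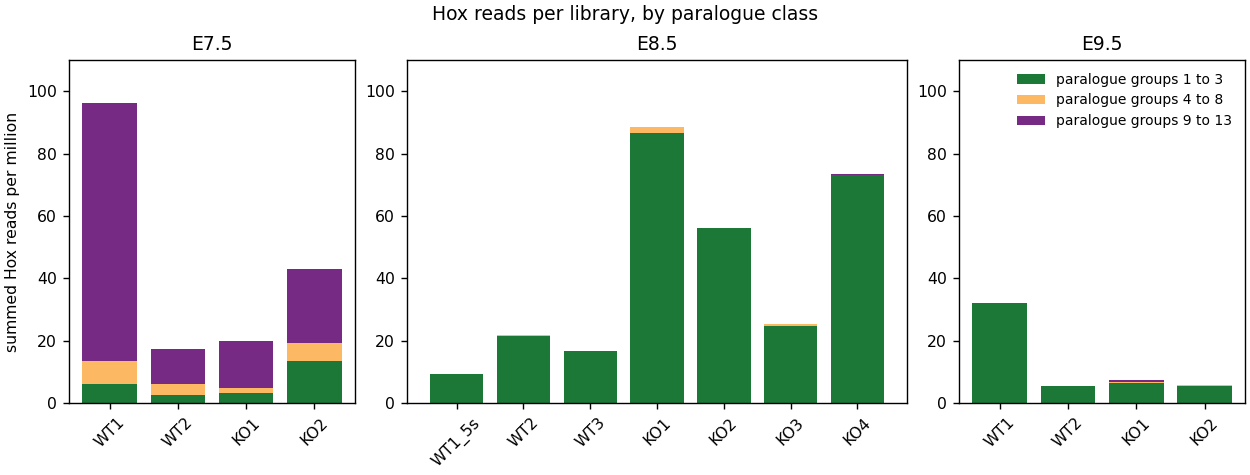
Summed Hox RPM (y axis) in each library (x axis), split by paralogue class. Groups 9 to 13 make up 85.96% of the Hox reads of WT1 at E7.5, and groups 1 to 3 make up at least 96.8% in every E8.5 library.

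At E7.5 Hox expression was uneven between the libraries of a genotype. Summed over the 39 genes it was 96.1 RPM in WT1, 17.5 in WT2, 19.9 in KO1 and 43.1 in KO2. Groups 9 to 13 made up 85.96% of the Hox reads of WT1 (95% exact binomial interval 83.5 to 88.2), 65.0% in WT2 (55.0 to 74.2), 75.5% in KO1 (65.8 to 83.6) and 55.3% in KO2 (50.1 to 60.3). The intervals cover counting error only. As a level, groups 9 to 13 summed to 82.6 RPM in WT1, 11.4 in WT2, 15.1 in KO1 and 23.8 in KO2, so both KO libraries lay between the WT libraries.

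Group 1 genes are the first Hox genes to come on in the primitive streak, and later act in the hindbrain. The normalised value of Hoxb1 was 2.81 in WT1, 2.51 in WT2, 9.74 in KO1 and 35.3 in KO2, so both KO libraries lay above both WT libraries. These rest on 4, 2, 7 and 44 reads. The log2 fold change, KO over WT on log2(value + 1), was 2.43 ± 0.964 (SE), with an unadjusted p of 0.0372. After Benjamini-Hochberg adjustment in limma over the 12492 genes tested it was 0.99996, so Hoxb1 was not called. KO2 carries code number 237 in its description and the other 3 libraries 239. Without KO2, which also leaves libraries of 1 code number, the log2 fold change was 1.55, and without KO1 it was 3.31.

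Hoxd1, also of group 1, was 13.4 in WT1, 3.77 in WT2, 1.39 in KO1 and 16.8 in KO2, with overlapping groups, and was not tested, since its mean was below the 10 that testing required. Hoxb2, a group 2 gene of the hindbrain, was 11.2 in WT1, 6.28 in WT2, 0 in KO1 and 24.8 in KO2. The KO libraries were the lowest and the highest of the 4. Its log2 fold change was -0.89 ± 1.54 (SE), and edgeR on the recovered reads gave 0.55, the other direction.

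The posterior genes read at E7.5 were members of groups 9 to 11 of HoxA and HoxD. Hoxa10, which patterns the posterior body and the uterus, was 242 in WT1, 31.4 in WT2, 40.4 in KO1 and 61.7 in KO2. Hoxa11, its neighbour, was 130.0 in WT1, 16.3 in WT2, 20.9 in KO1 and 37.7 in KO2. Hoxa9 was 54.8 in WT1, 5.03 in WT2, 6.96 in KO1 and 12 in KO2. All 3 had the same order of libraries, with WT1 highest, then KO2, KO1 and WT2.

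In HoxD, Hoxd10 was 61.8 in WT1, 10.1 in WT2, 5.57 in KO1 and 22.4 in KO2. Hoxd8, of group 8, was 33.7 in WT1, 1.26 in WT2, 6.96 in KO1 and 9.62 in KO2. Hoxd11 was 23.9 in WT1, 18.8 in WT2, 11.1 in KO1 and 15.2 in KO2. Hoxd11 was the tested posterior gene whose genotypes did not overlap, with both KO libraries lower. Its log2 fold change was -0.66 ± 0.629 (SE), with an adjusted p in limma of 0.99996.

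**Figure D3:**
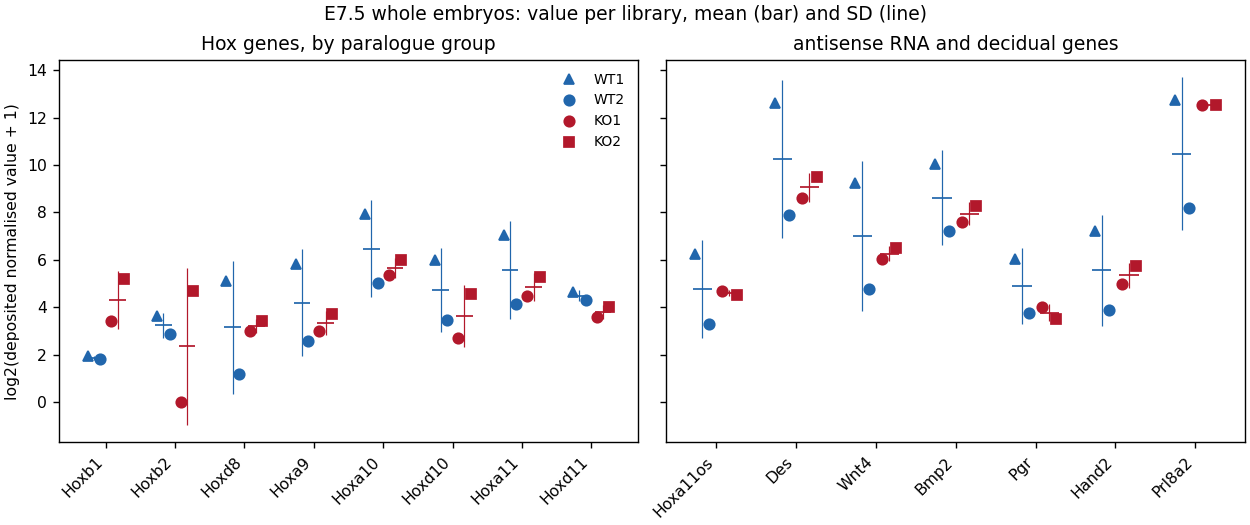
Deposited normalised values on a log2(value + 1) axis at E7.5, for Hox genes in order of paralogue group (left) and for the antisense RNA Hoxa11os with 6 genes of decidual stroma (right); points are libraries (blue WT, red KO), bars are group means and lines are SD. WT1 (triangles) is highest for Hoxa9, Hoxa10, Hoxa11, Hoxd8 and Hoxd10, and for every gene of the right panel.

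None of the 8 Hox genes tested at E7.5 was called at an adjusted p of 0.05, with 0% of all genes called. At an unadjusted p under 0.05 there was 1 of 8, Hoxb1, higher in KO, against 2.18% of all genes in that direction; edgeR called 0 of 8, and DESeq2 called neither of the 2 for which it gave an adjusted p, Hoxa10 and Hoxa11. The genotypes did not overlap for 1 of 8 with KO higher, against 16.1% of all genes, and for 1 of 8 with KO lower, against 12.7%. The median log2 fold change of the 8 was -0.76, beside -0.0099 over all genes tested. Hoxb1 reached the mean required for testing only through KO (mean 22.5, against 2.66 in WT), as did Hoxb2 (12.4, against 8.76). Hoxa9 (mean 29.9 in WT, against 9.49 in KO) and Hoxd8 (17.5, against 8.29) did so only through WT. The counts and the median of the 8 were thus shaped in part by this filter. Without WT1, Hoxa10 moved from -0.80 to 0.65, Hoxa11 from -0.71 to 0.75, Hoxa9 from -0.85 to 0.76 and Hoxd10 from -1.09 to 0.17, so their direction rested on that library.

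Markers of other tissues moved with the same library. Genes of the decidual stroma, the uterine lining around the embryo, were listed after the values were seen, since Hoxa10 and Hoxa11 are also uterine genes. All 6 listed genes had reads in every E7.5 library. Their summed level was 2332 RPM in WT1, 98.6 in WT2, 972 in KO1 and 1006 in KO2. Most of the sum in both KO libraries came from Prl8a2. Its normalised value was 6897 in WT1, 294 in WT2, 5952 in KO1 and 5925 in KO2. Des, which encodes a muscle and stromal filament, had a normalised value of 6296 in WT1, 239 in WT2, 394 in KO1 and 720 in KO2. Hoxa11os, transcribed from the strand opposite Hoxa11, was 73.8 in WT1, 8.79 in WT2, 25.0 in KO1 and 21.6 in KO2. Both were highest in WT1 and lowest in WT2, as were Hoxa10 and Hoxa11. The part of uterine tissue in the posterior Hox values was not tested.

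Other marker lists were summed at E7.5 too. The 10 trophoblast and extraembryonic ectoderm genes summed to 951 to 1789 RPM in WT and to 4339 to 7376 in KO. The somite and paraxial mesoderm genes summed to 5.3 to 11.4 in WT and 16.9 to 20.6 in KO, and the upstream regulators of Hox genes described with E8.5 to 241 in both WT libraries and 291 and 367 in KO. These 3 lists did not overlap between the genotypes, each with KO higher, and every other list summed at E7.5 overlapped. Among individual genes tested at E7.5, 16.1% did not overlap with KO higher and 12.7% with KO lower. Such separation is therefore common with so few libraries, and that of the lists was not tested. The 8 endothelial genes summed to 25.4 to 169 in WT and 97.1 to 152 in KO, and the 10 lateral plate, heart and limb genes to 220 to 373 and 298 to 600, with overlap in both. The part of these tissues in the Hox values was not tested. In whole embryos, fewer cells of a type and less RNA per cell cannot be told apart, and the same holds for the sorted cells below.

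At E8.5 the hindbrain Hox genes were higher in most KO libraries, but none passed the limma test after adjustment. Summed over the 39 genes, Hox RPM were 9.44, 21.9 and 16.6 in the WT libraries WT1_5s, WT2 and WT3. The KO libraries had 88.6, 56.3, 25.4 and 73.4, from KO1 to KO4. On this scale every KO library lay above every WT library, KO3 by a small margin. On the deposited scale, divided by size factors, the sums were 115, 265 and 151 in WT and 910, 589, 206 and 815 in KO, and KO3 lay below WT2. Groups 1 to 3 made up 96.8% to 100% of the Hox reads of each library.

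Hoxb2, which controls the identity of facial motor neurons and hindbrain segments, had normalised values of 29.8 in WT1_5s, 86.0 in WT2 and 33.2 in WT3. From KO1 to KO4 it stood at 346, 214, 71.6 and 316. KO3 lay inside the WT range and the other KO libraries lay above it. Fitted in limma, the log2 fold change was 2.18 ± 0.558 (SE), a 4.52-fold higher level on the log2(value + 1) scale, with an unadjusted p of 0.00283 and an adjusted p in limma of 0.776. DESeq2 on the recovered reads gave 2.25 with an adjusted p of 0.0170, and the authors' deposited table gives 2.26 with an adjusted p of 0.0157. edgeR's quasi-likelihood test gave an adjusted p of 0.699.

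Hoxa2, which sets the identity of the second pharyngeal arch and its crest, was at 10.8, 78.6 and 22.5 in WT1_5s, WT2 and WT3. It was at 264, 163, 46.3 and 177 from KO1 to KO4. The pattern matched that of Hoxb2, with KO3 between WT3 and WT2. Hoxa2 had a log2 fold change of 2.30 ± 0.693 (SE), with an unadjusted p of 0.00749 and an adjusted p in limma of 0.805.

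Hoxb1, the gene of rhombomere 4, was at 63.7, 76.2 and 82.1 in WT1_5s, WT2 and WT3, the narrowest WT range of the 5 tested genes relative to its level. Its KO values, from KO1 to KO4, were 177, 169, 54.7 and 261. KO3 was below every WT library, and the other 3 were above. Its fitted difference was smaller than those of group 2, a log2 fold change of 0.96 ± 0.460 (SE), with an unadjusted p of 0.0633 and an adjusted p in limma of 0.823.

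Group 3 works in the caudal hindbrain and in the crest of the posterior arches. Hoxb3 was at 2.71, 8.60 and 5.87 in WT1_5s, WT2 and WT3, and at 19.6, 17.7, 5.41 and 40.6 from KO1 to KO4. Only KO3 fell in the WT range. For Hoxb3 the log2 fold change was 1.52 ± 0.664 (SE), with an unadjusted p of 0.0449 and an adjusted p in limma of 0.815. Hoxa3 was 0, 0 and 2.93 in WT1_5s, WT2 and WT3, and 6.27, 3.12, 1.20 and 8.11 in KO1 to KO4, too low to test. Hoxd3 stood out in 1 library: it was 42.3 in KO1, and 2.71, 2.46 and 0 in the WT libraries and 3.12, 0 and 0 in KO2, KO3 and KO4. Hoxd1 was at 2.71 in WT1_5s and at 0 in WT2 and WT3, and at 4.70, 1.04, 4.81 and 0 from KO1 to KO4.

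**Figure D4:**
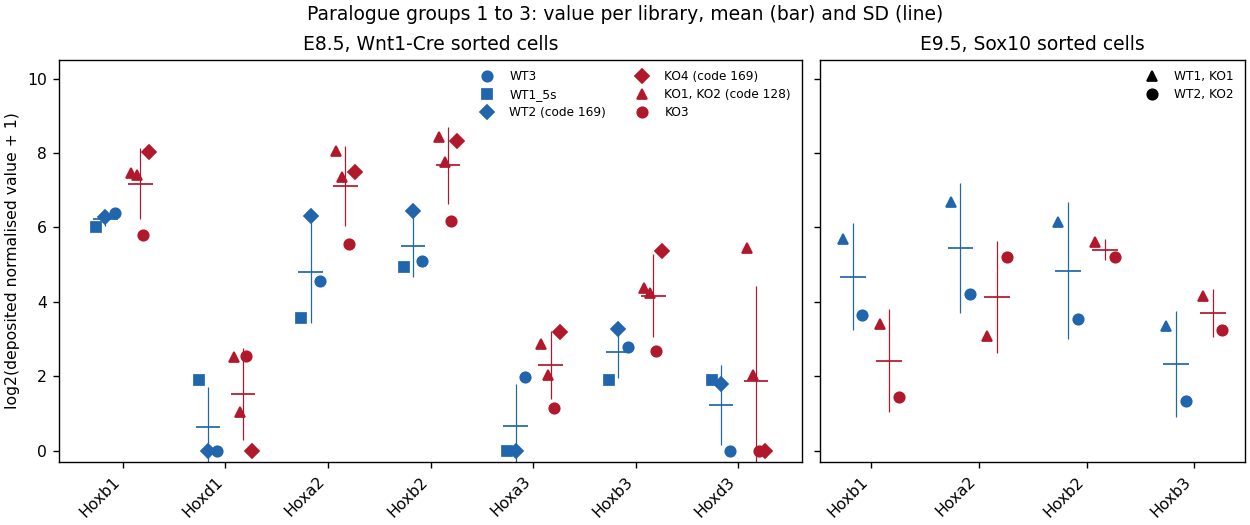
Deposited normalised values on a log2(value + 1) axis for members of paralogue groups 1 to 3 at E8.5 (left) and the 4 members read in every E9.5 library (right); points are libraries (blue WT, red KO), bars are means and lines are SD. At E8.5 KO1, KO2 and KO4 lie above the WT libraries for Hoxb1, Hoxa2, Hoxb2 and Hoxb3, while KO3 lies among or below them, and at E9.5 the groups overlap except for Hoxb1.

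None of the 5 tested Hox genes was called by limma at E8.5, with 0% of the 12257 genes tested called. All 5 had a positive log2 fold change, against 5749 of the 12257 genes, with a median of 1.52 beside -0.026 over all genes. That median is the value of Hoxb3, which reached the mean required for testing only through KO (mean 20.8, against 5.73 in WT). The filter thus favoured its direction, and the counts of positive changes and of small p-values among the 5 were shaped in part by the filter. At an unadjusted p under 0.05, 4 of 5 were higher in KO, Hoxb3 among them, against 3.14% of all genes. The genotypes did not overlap for 0 of 5 with KO higher, against 3.71% of all genes. DESeq2 called 1 of 5, Hoxb2, against 0.261% of all genes, and gave no adjusted p for 1 of the 5. The authors' deposited table of genes higher in KO at E8.5 lists these 5 among 539 genes, and their table of 437 lower genes lists 0 Hox genes. Of the 5 listed there, Hoxb2 has an adjusted p under 0.05.

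The libraries of E8.5 carry code numbers in their descriptions, of which 169 is shared by KO4 and WT2. Within that pair the log2 differences were 1.87 for Hoxb2, 1.16 for Hoxa2, 1.76 for Hoxb1 and 2.11 for Hoxb3, with 1 library on each side and so no test. KO1 and KO2 share code number 128, which no WT library has. Without them the log2 fold changes were 1.75 for Hoxb2, 1.71 for Hoxa2, 0.70 for Hoxb1 and 1.38 for Hoxb3, each with an adjusted p in limma of 0.99989. Without KO3 they were 2.67 for Hoxb2, 2.82 for Hoxa2, 1.42 for Hoxb1 and 2.01 for Hoxb3, with adjusted p values from 0.157 to 0.525. WT1_5s was the lowest WT library for each of these genes and in summed Hox RPM (9.44). No KO library with its tag was analysed, so part of the differences may rest on it. Without WT1_5s limma also called none of these genes.

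More posterior members had a few reads at E8.5. Of the 42 reads of groups 4 to 8, 26 were in KO1, spread over 8 members, and 11 were in KO3, of which 9 were of Hoxb6. Reads of Hoxa4, Hoxa5, Hoxc4, Hoxc5 and Hoxd4 were seen in KO1 alone, at 6, 6, 5, 2 and 3 reads. The WT libraries together had 2 reads of groups 4 to 8. These counts are too low for a fold, and KO1 is also the library with the Hoxd3 reads. Its depth of 13099260 reads was the second highest of the stage, after KO3.

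An antisense RNA of HoxA was chosen after its values were seen. Hoxaas2, which lies within Hoxa3 on the other strand, was at 0, 6.14 and 1.96 in the WT libraries in the same order, and at 27.4, 8.33, 5.41 and 30.1 from KO1 to KO4. KO1 and KO4 were highest, as for Hoxb2. The genotypes overlapped.

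Promoter windows are shown for Hoxb1 and Hoxa2, which were higher in the same 3 KO libraries at E8.5, and for Hoxa10, the highest Hox gene at E7.5, at the downstream one of its 2 RefSeq starts, which lies within an intron of the longer form. They are the bases upstream of the RefSeq start (build GRCm38.p6, 5′ to 3′ on the gene's strand), ended before the first annotated exon. Capitals mark matches on either strand to the PBX-HOX motif TGATNNAT, the MEIS motif TGACAG, the CDX motif TTTATG, the nuclear receptor motif AGGTCA, the CCAAT box CCAAT and the TATA box TATAAA.
Hoxb1, chr11:96365508-96365751, plus strand: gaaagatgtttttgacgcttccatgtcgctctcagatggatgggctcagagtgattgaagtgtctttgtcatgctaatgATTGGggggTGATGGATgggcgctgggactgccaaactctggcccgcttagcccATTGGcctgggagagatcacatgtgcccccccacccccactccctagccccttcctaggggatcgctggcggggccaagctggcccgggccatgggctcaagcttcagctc
Hoxa2, chr6:52164832-52165081, minus strand: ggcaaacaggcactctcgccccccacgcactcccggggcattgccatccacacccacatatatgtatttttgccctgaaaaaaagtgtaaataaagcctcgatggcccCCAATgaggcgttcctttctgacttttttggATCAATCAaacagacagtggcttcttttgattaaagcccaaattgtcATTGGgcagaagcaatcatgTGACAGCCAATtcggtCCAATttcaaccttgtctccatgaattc
Hoxa10, chr6:52234940-52235189, minus strand: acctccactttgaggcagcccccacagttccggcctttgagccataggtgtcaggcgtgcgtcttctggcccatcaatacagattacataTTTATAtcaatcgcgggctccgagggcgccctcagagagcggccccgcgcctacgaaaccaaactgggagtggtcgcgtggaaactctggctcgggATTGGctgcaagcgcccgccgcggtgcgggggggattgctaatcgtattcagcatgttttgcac

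The Hoxb1 window held 1 PBX-HOX match and 2 CCAAT boxes. The Hoxa2 window held 1 PBX-HOX match, 1 MEIS match next to a CCAAT box, and 4 CCAAT boxes in all. The Hoxa10 window held 1 CCAAT box and 1 TATA box. Over 24 windows of 22 Hox genes in RefSeq, the PBX-HOX motif was in 16.7%, against 7.68% of 32851 windows of all genes. The MEIS motif was in 8.33% against 15.9%, the CDX motif in 20.8% against 10.8%, and the nuclear receptor motif in 25.0% against 14%. CCAAT was in 58.3% against 33.8% and the TATA box in 16.7% against 12.4%. Median GC content was 58.6% in the Hox windows and 52.4% in all. These are counts of letters, not of bound sites.

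The cofactors with which Hox proteins bind DNA were followed as a list of 9 Pbx, Meis and Pknox genes. At E8.5 limma called 0 of 9 in either direction, and 8 of 9 log2 fold changes were positive, with a median of 0.18. Meis1 was the member with the smallest p. Its values were 56.9, 139 and 114 in the WT libraries and 337, 205, 168 and 227 from KO1 to KO4, with no overlap of the genotypes. Meis1 had a log2 fold change of 1.22 ± 0.351 (SE), with an adjusted p in limma of 0.786.

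Upstream regulators of Hox genes (16 Cdx, hindbrain and retinoic acid genes) were tested in 11 cases at E8.5, with 0 called, 5 positive and a median of -0.0024. Egr2, which switches on Hoxa2 and Hoxb2 in rhombomeres 3 and 5, was at 4.06, 40.5 and 2.93 in WT1_5s, WT2 and WT3. From KO1 to KO4 its values were 65.8, 72.9, 75.2 and 19.7, so that KO3 was the highest for Egr2 and the lowest for Hoxb2. Egr2 had a log2 fold change of 2.49 ± 0.803 (SE), with an adjusted p in limma of 0.807. Aldh1a2, which makes the retinoic acid that induces the front Hox genes, was 146, 93.4 and 371 in WT1_5s, WT2 and WT3, and 65.0, 127, 70.3 and 16.2 in KO1 to KO4. Aldh1a2 had a log2 fold change of -1.61 ± 0.653 (SE), with an adjusted p of 0.807.

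Factors of the forebrain and midbrain, levels that hold no Hox-positive crest, were a list of 12 genes, of which 11 were tested at E8.5. Limma called 0, 1 was positive, and the median was -0.75. Hesx1, a forebrain factor, was at 772, 335 and 516 in WT1_5s, WT2 and WT3, and at 160, 340, 278 and 17.4 from KO1 to KO4. Six3 was 438, 346 and 588 in those WT libraries, and 398, 248, 260 and 63.8 in KO1 to KO4. The list summed to 270 to 365 RPM in WT and 206 to 332 in KO, with KO1 and KO4 lowest and every member read in every library. This overlap depends on the scale: in deposited values the sum of every KO library lay below that of every WT library. The separation was not tested. The part of the axial level of the sorted cells in the Hox values was not tested.

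Markers of other cells were higher in some KO libraries at E8.5. The 11 erythroid genes summed to 1.7 to 2.5 RPM in WT, and to 1651, 2521, 3.33 and 98.9 from KO1 to KO4; the adult globin genes Hba-a1, Hba-a2 and Hbb-bt were at 0 in every library. KO3, with the lowest Hox sum of the KO libraries, thus also had the lowest erythroid sum of them. Trophoblast and extraembryonic ectoderm genes summed to 12.4 to 26.6 in WT and 28.6 to 89.4 in KO, highest in KO3 and with no overlap. The 13 crest genes overlapped, at 412 to 516 in WT and 469 to 843 in KO, highest in KO3. Neural tube genes summed to 228 to 305 in WT and 204 to 375 in KO, and somite genes to 7.0 to 10.3 and 7.3 to 24.6, both with overlap. Their part in the Hox values was not tested.

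At E9.5 the Hox genes left in the Sox10+ cells were few and low, and none was called although many genes of the table were. The summed Hox RPM were 32.2 in WT1, 5.58 in WT2, 7.21 in KO1 and 5.81 in KO2. WT1 stood far above the other 3 libraries, and WT2 was the lowest of the 4. On the deposited scale the sums were 238 in WT1, 41.9 in WT2, 93.9 in KO1 and 85.0 in KO2, in the same order but with both KO libraries farther above WT2. All Hox reads of both WT libraries were from groups 1 to 3.

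Hoxa2 was 102 in WT1, 17.7 in WT2, 7.39 in KO1 and 35.7 in KO2. KO2 lay between the WT libraries. Its estimate was a log2 fold change of -1.32 ± 1.15 (SE), with an adjusted p in limma of 0.373, and -0.089 without WT1. Hoxb1 was 50.6 in WT1, 11.6 in WT2, 9.5 in KO1 and 1.70 in KO2, on 50, 23, 9 and 1 reads. Both KO libraries lay below both WT libraries, KO1 by a small margin. Limma gave a log2 fold change of -2.26 ± 1.18 (SE), with an unadjusted p of 0.109 and an adjusted p in limma of 0.164. It was -1.24 without WT1 and -1.28 without KO2, -3.28 without WT2 and -3.24 without KO1.

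Hoxb2 was 69.9 in WT1, 10.6 in WT2, 47.5 in KO1 and 35.7 in KO2. Both KO libraries lay between the WT libraries, and without WT2 the log2 fold change was -0.75. With all libraries the log2 fold change was 0.56 ± 0.968 (SE), with an adjusted p in limma of 0.652. Hoxb3, under the mean of 10 that testing required, was 9.11 in WT1, 1.51 in WT2, 16.9 in KO1 and 8.5 in KO2. Hoxa6 was 0 in both WT libraries, 5.28 in KO1 and 1.70 in KO2, on 5 reads and 1 read. Most of the remaining members with a read at E9.5 had 1 or 2 reads.

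None of the 3 tested Hox genes was called at E9.5, against 47.5% of the 12000 genes tested. edgeR and DESeq2 also called 0 of 3, against 5475 and 5865 of the 12000. At an unadjusted p under 0.05 in limma there were 0 of 3, against 3399 genes higher and 3401 lower in KO. The genotypes did not overlap for 1 of 3 with KO lower, Hoxb1, against 41.7% of all genes. Hoxb1 reached the mean of 10 required for testing only through the WT libraries there (mean 31.1, against 5.60 in KO). The median log2 fold change of the 3 was -1.32, beside -0.14 over all genes. Both KO libraries carry code number 171 and both WT libraries code number 209, so genotype and code number cannot be told apart at this stage.

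**Figure D5:**
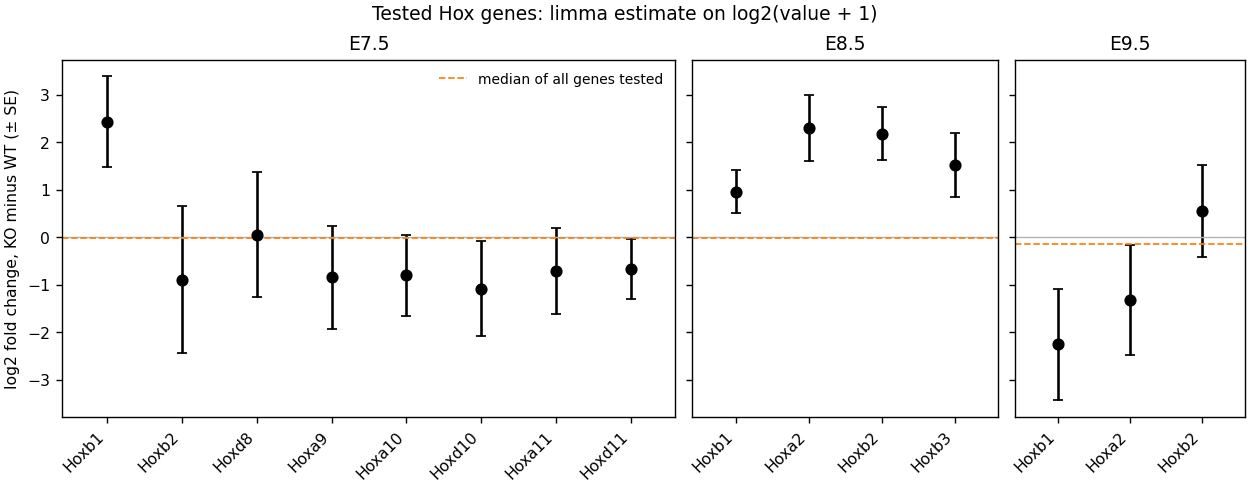
Limma log2 fold changes, KO minus WT, of tested Hox genes at each stage in order of paralogue group; points are estimates, error bars are SE and the dashed line is the median of all genes tested. The estimates drawn at E8.5 all lie above 0 and the estimates for Hoxb1 lie above 0 at E7.5 and E8.5 and below 0 at E9.5, with no gene past an adjusted p of 0.05.

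Members of the related lists are read at E9.5 against the 24.5% of all genes that limma called higher and the 23% that it called lower. Of the 9 cofactors, limma called 2 higher and 3 lower in KO. Meis3 was 381 in WT1, 275 in WT2, 981 in KO1 and 1202 in KO2, a log2 fold change of 1.74 ± 0.250 (SE) with an adjusted p in limma of 0.00503. Pbx3 was 430 and 477 in WT1 and WT2, and 166 and 69.7 in KO1 and KO2, a log2 fold change of -2.06 ± 0.459 (SE) with an adjusted p of 0.0178. Of the 13 tested Polycomb and trithorax genes, which keep Hox clusters silent or active, 0 were called higher and 8 lower, with a median log2 fold change of -1.62 beside -0.14 over all genes. Bmi1 was 532 in WT1, 600 in WT2, 194 in KO1 and 134 in KO2, with an adjusted p of 0.00651.

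Of the upstream regulators, 0 of 7 tested were called at E9.5. Of the forebrain and midbrain factors, 3 of 8 tested were called higher and 0 lower, against the same shares of all genes. Lhx2, a forebrain factor, was 5.06 in WT1, 7.07 in WT2, 93.9 in KO1 and 42.5 in KO2, with an adjusted p in limma of 0.0199. Lhx2 reached the mean of 10 required for testing only through the KO libraries. So did Otx1, at 12.2 in WT1, 6.06 in WT2, 66.5 in KO1 and 49.3 in KO2. For such members the filter favoured a higher level in KO. The list summed to 17.8 to 33.7 RPM in WT and to 19.5 to 32.5 in KO. This overlap depends on the scale: in deposited values the sums of both KO libraries lay above those of both WT libraries. The separation was not tested. Of the 10 axial progenitor genes, 3 were tested and 1, Sall4, was called, lower in KO.

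Libraries of E9.5 also differed in markers of other cells. Erythroid genes summed to 1.4 to 3.0 RPM in WT, to 21019 in KO1 and to 20.6 in KO2. Endoderm genes summed to 10.4 to 16.7 in WT and to 66.9 to 128 in KO. Crest genes summed to 809 to 856 RPM in WT and to 213 to 312 RPM in KO. On the deposited scale Sox10 itself was 722 and 639 in WT1 and WT2 and 511 and 1165 in KO1 and KO2. RPM and deposited values stand in a different ratio in the WT and KO libraries of this stage. The Sox10 values can therefore not be set against the crest sums. Their part in the Hox values was not tested.

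At E7.5 the related lists gave no call. The 9 cofactors had a median log2 fold change of 0.17 and the 10 tested upstream regulators one of 0.20. The 7 tested axial progenitor and tail bud genes, which accompany the onset of Hox expression in the streak, had a median of 0.39, with 2 higher at an unadjusted p under 0.05, against 2.18% of all genes. Evx1, a streak factor from beside the HoxA cluster, was 246 in WT1, 69.1 in WT2, 259 in KO1 and 497 in KO2. Its log2 fold change was 1.45 ± 0.602 (SE), with an adjusted p in limma of 0.99996. The highest Evx1 value was in KO2, the library with the highest Hoxb1 value. The Polycomb and trithorax list had 0 of 14 called at E7.5 and 0 of 14 at E8.5.

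Hoxb1 and Hoxb2 were the members tested at every stage. For Hoxb1 the log2 fold change was 2.43 in the whole embryos, 0.96 in the Wnt1-Cre+ cells and -2.26 in the Sox10+ cells, with none past the adjusted threshold. For Hoxb2 it was -0.89, 2.18 and 0.56 in the same order. The tissues differ between stages and the differences between stages were not tested.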

How the data were processed

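RNA was converted to cDNA with SMART-Seq v4 and made into libraries with Nextera XT, per the labels' protocols. The submitters' processing notes name STAR 2.7.0f, FastQC 0.11.5 and build mm10; the read counter is not given in the sources used here. For each stage the authors deposited 1 table of gene counts divided by size factors (a signal, not whole counts), normalised within the stage. Values were whole multiples of 1 value per library for 100% of entries (tolerance 0.01 read), which gave back the reads. The authors' deposited tables of selected genes at E8.5 and E9.5 hold means (signal), log2 fold changes, test scores and p-values. One library, labelled KO at E8.5 with the tag 5s, was not analysed here; 15 of 16 were.

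KO and WT were compared within each stage with limma 3.58.1 on log2(value + 1), for genes with a mean of at least 10, two-sided, with Benjamini-Hochberg adjustment over all genes tested and a threshold of 0.05. A fold change on this scale understates the change of low genes. As alternatives, the recovered reads were fitted with edgeR 4.0.16 and DESeq2 1.42.0, and the limma fit was tested on simulated data. Levels between genes are reads per kilobase of the longest GENCODE M21 transcript, scaled to 1000000 assigned reads. All 39 Hox symbols matched the annotation; 22 matched a RefSeq promoter. Values in every library are given for the 6 tested members with the smallest p and the 6 with the highest per-length level at each stage, and for groups 1 to 3 at E8.5, with up to 4 genes of each related list. 1 member is not reported here by its own values and stays in the fits, sums and counts. The members and lists were chosen with earlier results of these data known. Replicate numbers were not used to pair the libraries in the main fit.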

Additional observations from a re-analysis of the deposited data

Results flagged for a closer look

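Hoxb1 was higher in both KO libraries than in both WT libraries at E7.5 (log2 fold change 2.43) and lower in both KO libraries than in both WT libraries at E9.5 (-2.26). The opposite directions singled it out; the difference between the stages was not tested, the stage tables were normalised separately, and the samples are whole embryos at E7.5 and sorted Sox10+ cells at E9.5. Neither value passed the adjusted threshold at its own stage, and the WT values rest on 4 and 2 reads at E7.5. Hoxb1 reached the mean of 10 required for testing only through KO at E7.5 (mean 22.5, against 2.66 in WT). At E9.5 it did so only through WT (mean 31.1, against 5.60 in KO), so the filter favoured both directions. With 1 library left out in turn the log2 fold change ranged from 1.55 (without KO2) to 3.31 (without KO1) at E7.5, and from -3.28 (without WT2) to -1.24 (without WT1) at E9.5.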

How the results depend on the processing

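The count of called Hox genes stayed at 0 under every alternative run at E7.5 and E9.5, where a minimum mean of 100 left no Hox gene to test. At E8.5 it was 1 with DESeq2 and 1 with the replicate block, and 0 under the others; leaving out each library in turn gave 0 at every stage. The gene called was Hoxb2, with log2 fold changes of 2.25 (adjusted p 0.0170) and 1.96 (adjusted p 0.0464). With the replicate block, limma called 678 of 12257 genes at E8.5. Deviations of same-numbered libraries correlated across genes at -0.12 (E7.5), 0.076, -0.025 and 0.55 (E8.5) and -0.17 (E9.5). Only KO3 and WT3 of E8.5 deviated together clearly. With so few pairs, the values neither establish nor exclude pairing by number. A crossed replicate block, chosen after seeing the data, called 48 genes at E7.5 and 6665 at E9.5, with 0 Hox genes.

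Directions turned for genes far from any call. At E7.5 Hoxd8 (0.054) was -0.28 with a pseudocount of 8, -1.13 with edgeR, -1.11 with DESeq2 and -0.15 in libraries of 1 code number. Hoxb2 (-0.89) was 0.55 with edgeR and 0.50 with DESeq2. With each library left out in turn, the lowest and highest values at E7.5 were -1.92 (without WT2) and 2.03 (without WT1) for Hoxd8, with 0.26 without KO1, -3.24 (without KO2) and 1.45 (without KO1) for Hoxb2, with -1.27 without WT2, and -2.46 (without WT2) and 0.76 (without WT1) for Hoxa9. Members that fell under the minimum mean without a library were fitted with the genes of the full comparison, chosen after seeing the data. For Hoxa10 they were -2.26 and 0.65, for Hoxa11 -2.17 and 0.75, and for Hoxd10 -2.34 and 0.17, each without WT2 and without WT1. At E9.5 Hoxb2 ranged from -0.75 without WT2 to 1.86 without WT1. Of the 6 highest per-length genes, 4 stayed at E7.5 and 6 at E8.5 and E9.5 with the union of exons as length. TMM factors moved the median of all genes by -0.16 at E9.5, and DESeq2 by 0.15. Adding the KO library with the tag 5s was not run. Depth limits members under about 10 reads, for which no fold is given.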
